A study of Homo sapiens with 9 samples.

Results

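The neurotrophin system of MDA-MB-231, a long-established line of human triple-negative breast cancer, was followed through 6 genes: the ligands BDNF and NTF3, the receptors NGFR, NTRK2 and NTRK3, and the sorting receptor SORT1. They are 6 of the 27548 rows of the deposited expression table, and each symbol had 1 row. NGFR was selected on its measured log2 CPM, for a level that rose in both steps described below, so its levels and folds are given as a description with no test. The other 5 genes were taken as its known ligands and partner receptors. The rule names no value of theirs, although they were proposed with earlier results of these data in view.

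RNA was sequenced in 3 groups of 3 libraries, all labelled MDA-MB-231. Libraries S1 to S3 were of control cells that received a control siRNA (CTL+siCTL). Libraries S4 to S6 were of cells with overexpressed TLX, the nuclear receptor encoded by NR2E1, that received the same control siRNA (TLX+siCTL). Libraries S7 to S9 came from the TLX overexpressing cells given an siRNA directed at TLX (TLX+siTLX). All groups shared the siRNA transfection, which lasted 48 h after 24 h of seeding. How TLX was overexpressed, whether the cells were a pool or a clone, and the siRNA sequences are not given in these sources. In the titles of the control samples the name of a prostate cancer line, PC3, appears without explanation. Nothing states that the libraries of a group came from separate cultures. The p-values therefore reflect only how these libraries spread, which may be technical.

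NR2E1 itself had a log2 CPM (read counts scaled to library size, with a prior count added) of -4.59, -4.28 and -4.50 in S1 to S3, 0.28, -0.84 and 0.23 in S4 to S6, and -2.61, -3.40 and -1.77 in S7 to S9. The targeted gene was thus highest in TLX+siCTL and intermediate after the siRNA, with no overlap between groups. Effective library sizes ran from 73.9 to 91.8 M reads. S9 stood furthest from its group: the chi-square of its counts per gene was 59.8 against S7, where S7 and S8 gave 25.2. Of the mesenchymal genes listed for this line, VIM was high in every group, at a log2 CPM of 10.00 to 10.82, while SPARC was low, at -4.90 to -2.09. The estrogen receptor gene ESR1 was low as well, at -2.88 to -1.78. Of 10 prostate markers, HOXB13 and FOLH1 stayed under 3 reads in every library, and the summed level of the list was 48.7 to 50.9 CPM in CTL+siCTL, 49.3 to 51.5 in TLX+siCTL and 50.9 to 55.1 in TLX+siTLX.

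Neurotrophins are secreted growth factors best known from the nervous system, made as precursors and cut to mature dimers. Mature ligands bind the Trk receptor tyrosine kinases, NTRK2 and NTRK3 among them, which signal through adaptors to the MAP kinase, PI3 kinase and phospholipase C pathways. NGFR, the shared low-affinity receptor of the TNF receptor family, binds all neurotrophins and, with sortilin (SORT1), their precursors. In the breast it is known as a marker of myoepithelial cells, and in other tissues of neural crest derivatives.

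Upstream sequence was taken for 5 of the 6 genes, all but NGFR, as 14 windows of RefSeq start sites on GRCh38.p14, and was searched because TLX is a DNA-binding receptor. The letters searched were AAGTCA, the half-site that TLX is known to bind (TGACTT on the other strand), and CGTCA, the half-site of cyclic AMP response elements (TGACG on the other strand). In the 250 bases before the start, AAGTCA was found in 1 of the 14 windows, against 10.9% of 35116 windows of all genes, and CGTCA in 2 of the 14, against 21.2%. The fourth BDNF window also holds a match, CGTCA starting 47 bases before the start site, and is not shown. The windows below each hold a match, and their overlap with annotated exons was not examined. The first is the second BDNF window (chr11:27720780-27721029, minus strand), with AAGTCA in capitals, starting 149 bases before the start site. The other is the third NTRK2 window (chr9:84670099-84670348, plus strand), with CGTCA and TGACG in capitals, starting 145 and 56 bases before the start site. A match in letters is a description and does not show binding.
BDNF: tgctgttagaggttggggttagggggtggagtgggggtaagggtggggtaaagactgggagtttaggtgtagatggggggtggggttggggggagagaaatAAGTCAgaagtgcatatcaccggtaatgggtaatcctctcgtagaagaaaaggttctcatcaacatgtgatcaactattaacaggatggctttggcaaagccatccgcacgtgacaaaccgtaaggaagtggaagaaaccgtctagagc
NTRK2: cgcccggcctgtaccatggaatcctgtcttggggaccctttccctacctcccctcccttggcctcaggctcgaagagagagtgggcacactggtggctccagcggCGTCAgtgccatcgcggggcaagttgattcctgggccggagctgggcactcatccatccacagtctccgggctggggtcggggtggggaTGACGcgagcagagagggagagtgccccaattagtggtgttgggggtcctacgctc

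NGFR (ENSG00000064300, GRCh38 chr17:49495293-49515017, plus strand) had a log2 CPM of 0.22, -0.24 and 0.36 in S1, S2 and S3. In S4, S5 and S6 its log2 CPM was 2.53, 2.58 and 2.40. In S7, S8 and S9 it was 4.23, 4.32 and 4.50. The 3 groups formed 3 separate levels, lowest in control cells and highest in TLX overexpressing cells given the siRNA against TLX. The group means were 0.11 ± 0.31, 2.50 ± 0.09 and 4.35 ± 0.14 (SD, n = 3), and the smallest gap between libraries of neighbouring groups was wider than the range within any group.

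In estimated reads, NGFR rested on 62.8 to 92.6 reads per library in CTL+siCTL, 416 to 529 in TLX+siCTL and 1520 to 1964 in TLX+siTLX. With the prior count taken out, its mean was 1.07 CPM in CTL+siCTL, 5.65 in TLX+siCTL and 20.4 in TLX+siTLX. These are ratios of 5.27 for TLX+siCTL against CTL+siCTL, 3.61 for TLX+siTLX against TLX+siCTL and 19.0 for TLX+siTLX against CTL+siCTL. In a bulk sample, more cells that express a gene and more RNA per cell cannot be told apart. NGFR moved from a mean above 51.3% of all rows in control cells to one above 71.4% in TLX+siTLX.

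On the log2 scale NGFR differed by 2.39 between TLX+siCTL and CTL+siCTL, by 1.85 between TLX+siTLX and TLX+siCTL, and by 4.24 between TLX+siTLX and CTL+siCTL. Among the 12564 rows that averaged a log2 CPM of 1 or more, 6 rows had a larger difference in the first comparison, 52 in the second and 3 in the third. NGFR and NR2E1 thus took different courses: NR2E1 fell after the siRNA while NGFR was higher still. Rows higher in both steps were not rare: 967 of 27548 rows, or 3.51%, passed limma's adjusted p of 0.05 upward in each step. NGFR was chosen for this pattern, so nothing is read from its place among them. The authors' deposited table gives fold changes of 5.33, 3.61 and 19.2 for NGFR in the same order. NGFR and BDNF both overlap genes annotated on the other strand. The antisense genes looked up, NGFR-AS1 and BDNF-AS, had no row under these symbols. Reads of a gene and of an overlapping antisense gene can be confused where counting ignores strand, and no source used here states whether strand was used.

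**Figure D1:**
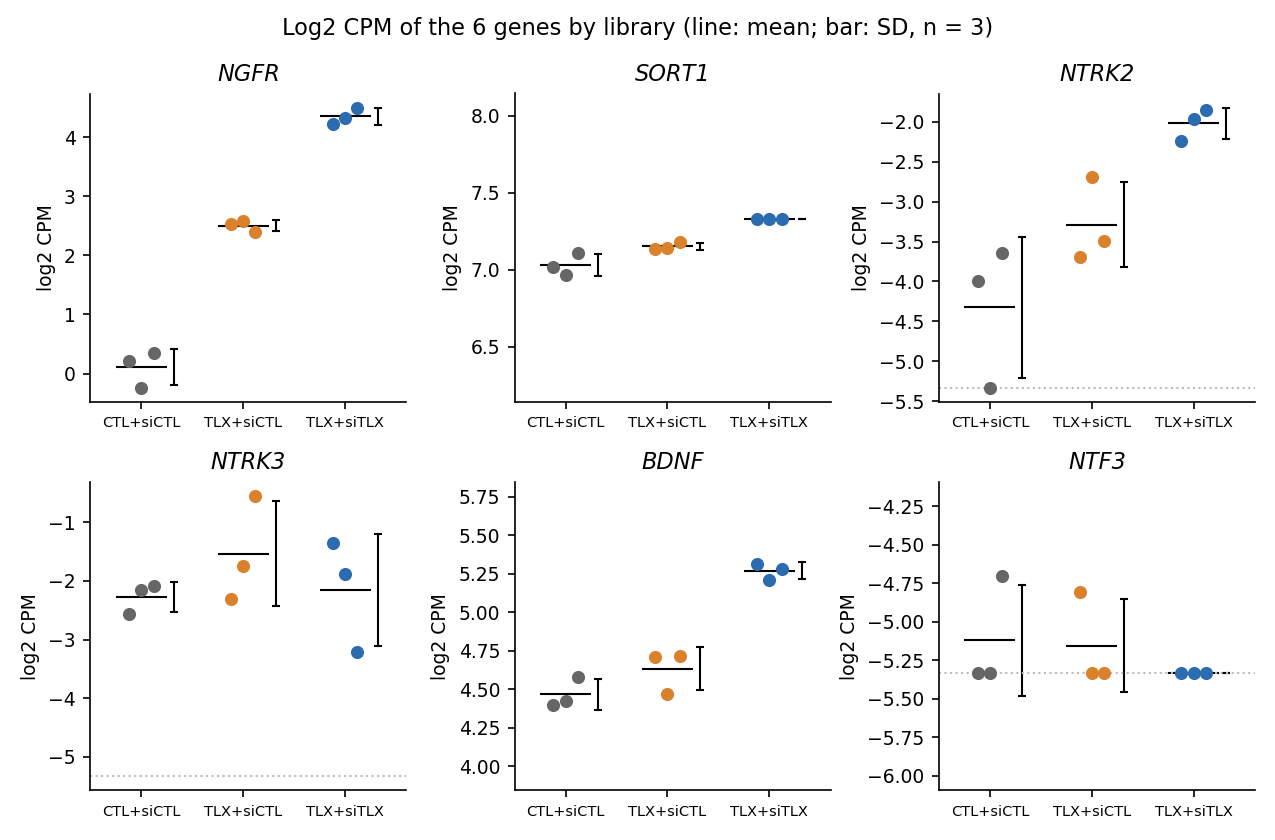
Log2 CPM (y axis) of each of the 6 genes in the 9 libraries by group (x axis), with the mean as a line and the SD (n = 3) as a bar beside the points. NGFR formed 3 separate levels from 0.11 to 4.35, SORT1 and BDNF shifted upward by less than 1 unit, NTRK2 and NTRK3 lay between -5.33 and -0.55, and NTF3 lay at or near the floor of -5.33.

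Of the ligands, BDNF, which signals through NTRK2, was well expressed and was higher after the siRNA, while NTF3 lay near the floor. BDNF (ENSG00000176697, chr11:27654893-27722058, minus strand) had a log2 CPM of 4.39, 4.42 and 4.58 in S1 to S3, 4.71, 4.47 and 4.72 in S4 to S6, and 5.31, 5.21 and 5.28 in S7 to S9. The control and TLX+siCTL libraries overlapped (S5 lay below S3), while all TLX+siTLX libraries lay above both. BDNF rose by 0.64 ± 0.08 (SE) on the log2 scale between TLX+siTLX and TLX+siCTL (limma adjusted p = 0.000469 with Benjamini-Hochberg adjustment over all rows, 95% interval 0.46 to 0.81). Against CTL+siCTL it rose by 0.80 ± 0.08 (limma adjusted p = 4.9e-05). In CPM these are ratios of 1.55 and 1.74.

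Between TLX+siCTL and CTL+siCTL the difference in BDNF was 0.17 ± 0.08, with limma adjusted p = 0.159 and an interval from -0.01 to 0.34. It passed the threshold without S5 (0.25, adjusted p = 0.0296) and with library medians centred (0.28, adjusted p = 0.0228), a scaling that moved the median of all rows by 0.12, -0.14 and -0.03 in the 3 comparisons. The authors' deposited table gives BDNF fold changes of 1.12, 1.55 and 1.75, with false discovery rates of 0.168, 0.000115 and 2.75e-05.

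NTF3, the ligand of NTRK3 (ENSG00000185652, chr12:5432112-5521536, plus strand), had at most about 1 estimated read in any of the 9 libraries. It was above 0 in S3 and S4 only, so no CPM ratio is given and no difference was detectable at this depth. In limma it was not called in any comparison (adjusted p = 0.967, 0.638 and 0.517).

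SORT1, the sortilin that pairs with NGFR for binding of neurotrophin precursors (ENSG00000134243, chr1:109309568-109397951, minus strand), had the highest level of the 6 genes and changed little. Its log2 CPM was 7.02, 6.97 and 7.11 in S1 to S3, 7.14, 7.14 and 7.18 in S4 to S6, and 7.33, 7.33 and 7.33 in S7 to S9. The groups did not overlap in any comparison, although S3 and S4 lay only a few hundredths apart. SORT1 rose by 0.18 ± 0.04 (SE) between TLX+siTLX and TLX+siCTL (limma adjusted p = 0.0116), a CPM ratio of 1.13. This call was lost with library medians centred (0.036, adjusted p = 0.616) and without the intensity trend (0.18, adjusted p = 0.0606). It rose by 0.30 ± 0.04 between TLX+siTLX and CTL+siCTL (adjusted p = 0.000371, ratio 1.23).

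Between TLX+siCTL and CTL+siCTL the difference in SORT1 was 0.12 ± 0.04, with limma adjusted p = 0.0517 and an interval from 0.03 to 0.21. This value lay so close to the threshold that 6 of the alternative settings carried it across (adjusted p between 0.00199 and 0.160 over all of them). The authors' deposited table gives fold changes of 1.09, 1.13 and 1.23 for SORT1.

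NTRK2, the BDNF receptor TrkB (ENSG00000148053, chr9:84668551-85027070, plus strand), was low throughout, with group means in the same order as those of NGFR. It rested on 3.05, 0 and 4.06 estimated reads in S1 to S3, 4.84, 10.3 and 5.08 in S4 to S6, and 15.2, 17.8 and 21.9 in S7 to S9. The TLX+siTLX libraries lay above all others, and every value was small. Its log2 CPM means were -4.33 ± 0.89, -3.29 ± 0.53 and -2.02 ± 0.20 (SD, n = 3). NTRK2 rose by 2.31 ± 0.47 (SE) between TLX+siTLX and CTL+siCTL (limma adjusted p = 0.00422), a ratio of 7.24 in CPM with a 95% counting interval of 3.34 to 19.2.

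Between TLX+siTLX and TLX+siCTL the NTRK2 difference was 1.27 ± 0.47 with limma adjusted p = 0.0891, and between TLX+siCTL and CTL+siCTL it was 1.04 ± 0.47 with adjusted p = 0.143. The CPM ratios behind them were 2.71 (counting interval 1.62 to 4.83) and 2.67 (1.09 to 7.51). The former difference passed on the log2(CPM + 1) scale (0.17, adjusted p = 0.00689) and without S2, the library with no NTRK2 read (1.27, adjusted p = 0.0313).

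NTRK3, the receptor TrkC that prefers NTF3 (ENSG00000140538, chr15:87859751-88256768, minus strand), was also low and showed no order. It had 11.6, 15.3 and 15.5 estimated reads in S1 to S3, 16.3, 21.5 and 52.3 in S4 to S6, and 29.7, 19.0 and 7.19 in S7 to S9. S6 held the highest and S9 the lowest value, and the groups overlapped. The differences were 0.74, -0.62 and 0.12 (SE 0.57), with limma adjusted p = 0.421, 0.517 and 0.932. Their 95% intervals ran from -0.57 to 2.04, from -1.92 to 0.69 and from -1.19 to 1.42, which is too wide to show that the level stayed the same.

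**Figure D2:**
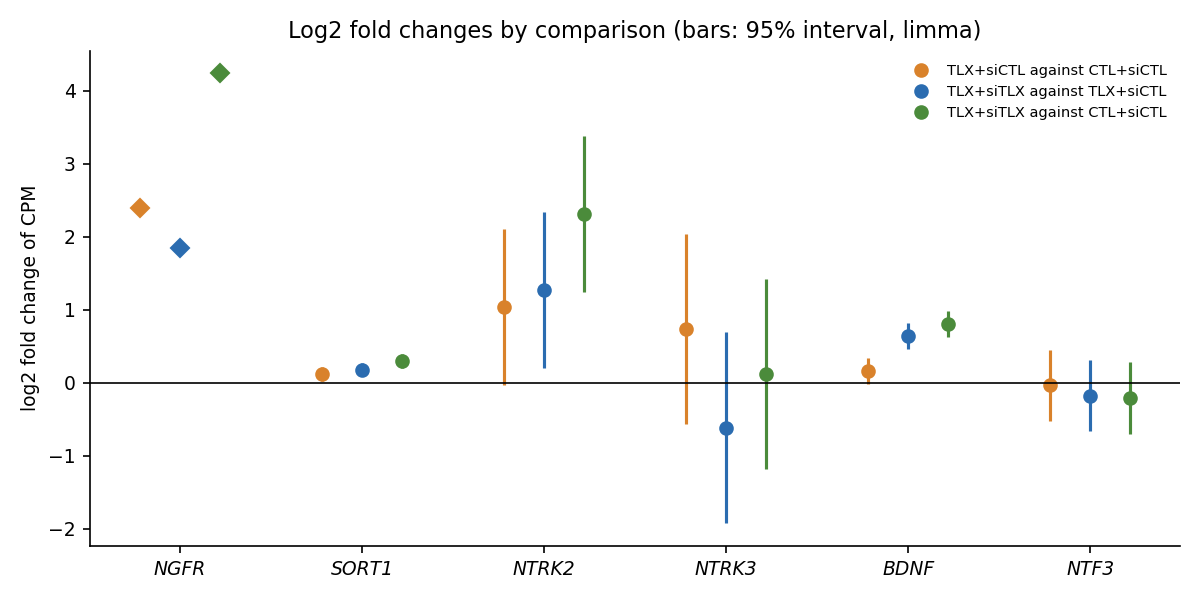
Log2 fold changes (y axis) of the 6 genes (x axis) in the 3 comparisons (colours), with 95% intervals from limma as bars for the 5 tested genes and diamonds alone for NGFR. BDNF and SORT1 have narrow intervals above 0 in both comparisons of TLX+siTLX, and those of NTRK3 span 0 throughout.

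Counted over the 5 tested genes, 0 passed limma's threshold in TLX+siCTL against CTL+siCTL, where 30.1% of all rows did and 15.0% rose. By limma 1 of the 5 had an unadjusted p under 0.05, and 4 of the 5 estimates were positive. In TLX+siTLX against TLX+siCTL, 2 rose (SORT1 and BDNF) and 0 fell, where 23.7% of all rows were called and 12.7% rose. In TLX+siTLX against CTL+siCTL, 3 rose (NTRK2, SORT1 and BDNF) and 0 fell, where 34.6% were called and 17.7% rose. Libraries of the higher group lay above all of the lower group for 1, 3 and 3 of the 5 genes, and for 20.5%, 17.4% and 21.0% of all rows. Leaving out S9 gave the same counts of 0, 2 and 3. Of the called rows 49.9%, 53.8% and 51.0% were higher, and with library medians centred 64.9%, 29.9% and 47.9%. With 5 genes, these counts do not set the group apart from the background. Low rows are seldom called: among rows averaging a log2 CPM of 1 or more, 56.6%, 45.8% and 63.6% were called, and SORT1 and BDNF are the tested genes of that level.

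Levels were set against each other per kilobase of exon, since the genes differ in length. SORT1 was highest in each group, with 14.3, 15.5 and 17.6 CPM per kb in CTL+siCTL, TLX+siCTL and TLX+siTLX. BDNF had 2.86, 3.21 and 4.98 CPM per kb. NGFR had 0.258, 1.36 and 4.92 CPM per kb. NGFR thus lay well under BDNF in control cells and at a like level in TLX+siTLX, and both stayed under SORT1. NTRK2 and NTRK3 were at or under 0.0138 CPM per kb in every group. Exon length sums all annotated transcripts, which makes these values approximate.

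NTF4, a further NTRK2 ligand, had a log2 CPM between -5.33 and -2.38 and was not called (limma adjusted p = 0.827, 0.260 and 0.359). The list of related sorting receptors held SORL1 and SORCS2 as measured rows. Both averaged a log2 CPM of 1 or more, a level at which 56.6%, 45.8% and 63.6% of rows were called. Of these 2, 1 rose in TLX+siCTL against CTL+siCTL, 2 rose in TLX+siTLX against TLX+siCTL and 2 in TLX+siTLX against CTL+siCTL, and none fell by the test. SORCS2, a sortilin relative that binds NGFR and proneurotrophins, had a log2 CPM of 5.56, 5.61 and 5.78 in S1 to S3, 6.49, 6.62 and 6.64 in S4 to S6, and 7.31, 7.34 and 7.25 in S7 to S9. Its 3 groups were separate and in the same order as those of NGFR, with rises of 0.94 ± 0.06, 0.71 ± 0.06 and 1.65 ± 0.06 (limma adjusted p = 9.88e-06, 9.08e-05 and 3.15e-07). SORL1, another sorting receptor of this family, rose by 0.69 ± 0.14 in TLX+siTLX against TLX+siCTL (limma adjusted p = 0.00673). It differed by 0.11 ± 0.14 in TLX+siCTL against CTL+siCTL (adjusted p = 0.612).

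Enzymes that cut proneurotrophins did not move as a group. Of 12 genes, 1 rose and 2 fell in TLX+siCTL against CTL+siCTL, 3 rose and 0 fell in TLX+siTLX against TLX+siCTL, and 3 rose and 1 fell in TLX+siTLX against CTL+siCTL. Of all rows 30.1%, 23.7% and 34.6% were called in these comparisons, so the counts do not set the list apart. Of the 12 genes, 4 averaged a log2 CPM of 1 or more. The list medians were 0.10, 0.10 and 0.19 on the log2 scale, where the median of all rows was 0. FURIN, the main intracellular convertase, rose by 0.36 ± 0.07 in the first comparison and differed by 0.06 in the second (adjusted p = 0.644). PCSK7, a further convertase, was not called (adjusted p = 0.406, 0.853 and 0.244). PCSK6, a secreted convertase, fell by 1.65 ± 0.19 and then rose by 0.94 ± 0.19. PLAT, which activates the plasmin that cuts extracellular proBDNF, fell by 0.34 ± 0.05 and then rose by 1.07 ± 0.05, to end 0.73 above control cells. MMP7, a matrix protease known to cut proneurotrophins, rose by 1.86 ± 0.44 after the siRNA, a call lost without S9. Its log2 CPM was low, between -4.72 and -3.52 in S4 to S6 and between -2.66 and -2.12 in S7 to S9.

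The proteases that cut NGFR itself also split. Of the 7 genes reported, 1 rose and 3 fell in TLX+siCTL against CTL+siCTL, and 2 rose and 3 fell in each of the other comparisons (medians -0.31, -0.079 and -0.31). All 7 averaged a log2 CPM of 1 or more, a level at which 56.6%, 45.8% and 63.6% of rows were called. ADAM10, a sheddase, rose by 0.37, 0.66 and 1.03 (SE 0.06, limma adjusted p = 0.00197, 0.000125 and 3.34e-06). ADAM17, the main sheddase of NGFR, fell by 0.38 ± 0.06 in TLX+siCTL and differed by -0.08 after the siRNA (adjusted p = 0.454). Among the gamma-secretase genes, PSEN2 fell by 0.37, 1.04 and 1.40 (SE 0.04). NCSTN, the substrate-binding subunit, rose by 0.34 ± 0.05 after the siRNA, while APH1A, a scaffold subunit, fell by 0.14 ± 0.04 (limma adjusted p = 0.0415), a call lost without S9.

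NGFR has no catalytic domain and works through partners. Of 24 listed coreceptors and intracellular partners, 22 had a row, of which 7 rose and 7 fell in TLX+siCTL against CTL+siCTL, 3 rose and 7 fell in TLX+siTLX against TLX+siCTL, and 7 rose and 8 fell in TLX+siTLX against CTL+siCTL (medians 0.10, -0.15 and 0.00). Of the 22 genes, 17 averaged a log2 CPM of 1 or more. Of all rows at that level 56.6%, 45.8% and 63.6% were called, and the counts lie near those shares. With library medians centred, the first split became 10 and 6 and the second 3 and 11. MAGEH1, a member of the MAGE family that binds the NGFR intracellular domain, had a log2 CPM of -0.61, -0.76 and -0.63 in S1 to S3, 1.70, 1.74 and 1.72 in S4 to S6, and 1.54, 1.40 and 1.62 in S7 to S9. It rose by 2.38 ± 0.12 with TLX (limma adjusted p = 2.44e-06) and differed by -0.20 ± 0.12 after the siRNA (adjusted p = 0.312). TNFRSF19, a coreceptor in the Nogo receptor complex, fell by 1.24 ± 0.16 and then rose by 0.76 ± 0.16. IRAK1, a kinase recruited to NGFR, rose by 0.85 ± 0.07 with TLX. ARHGDIA, a GDP dissociation inhibitor of small GTPases, rose by 0.40 ± 0.04, while RHOA, such a GTPase, was not called in any comparison. SQSTM1, a scaffold of this pathway, fell by 0.68 ± 0.05 after the siRNA. It is a symbol on more than 1 row and its value is uncertain.

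Of 26 Trk adaptors and proximal signalling genes, 7 rose and 9 fell in TLX+siCTL against CTL+siCTL, 3 rose and 5 fell in TLX+siTLX against TLX+siCTL, and 7 rose and 10 fell in TLX+siTLX against CTL+siCTL. The medians were -0.10, -0.04 and -0.12. Of the 26 genes, 25 averaged a log2 CPM of 1 or more, a level at which 56.6%, 45.8% and 63.6% of rows were called. Centring the library medians turned the first split to 10 and 5 and the second to 1 and 13. Leaving out S9 turned the second to 1 and 3, with the calls of SHC3, FRS2, PLCG1 and CRK lost. GAB2, a docking protein downstream of Trk receptors, had the largest difference of a called gene in this list, with a log2 CPM of 7.50 to 7.59 in CTL+siCTL, 5.67 to 5.88 in TLX+siCTL and 5.35 to 5.74 in TLX+siTLX. It fell by 1.76 ± 0.09 (limma adjusted p = 2.9e-06) and differed by -0.23 ± 0.09 after the siRNA (adjusted p = 0.115). RAPGEF1, an activator of the GTPase Rap, rose by 0.75 ± 0.06 and then fell by 0.29 ± 0.06. NEDD4L, a ubiquitin ligase, rose by 0.85 ± 0.09 in the first comparison. PTPRS, a receptor phosphatase that acts on Trk receptors, rose by 0.67 ± 0.09 after the siRNA. SHC1, the adaptor of the juxtamembrane Trk site, fell by 0.18 ± 0.04 with TLX, a call lost with library medians centred, and PTPN11 was not called in any comparison.

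Genes known to respond to Trk and MAP kinase signalling fell more often than they rose by the test. Of 10, 1 rose and 6 fell in TLX+siCTL against CTL+siCTL, 1 rose and 4 fell in TLX+siTLX against TLX+siCTL, and 1 rose and 7 fell in TLX+siTLX against CTL+siCTL, with medians of -0.67, -0.16 and -0.70. Of all rows 15.1%, 10.9% and 17.0% fell in these comparisons. The first and the third count were the same with library medians centred and with quantile normalization. EGR1, an immediate early transcription factor, had a log2 CPM of 7.82, 7.83 and 7.55 in S1 to S3, 5.40, 5.67 and 5.07 in S4 to S6, and 4.53, 4.62 and 4.44 in S7 to S9. Its groups were separate and in the reverse order of those of NGFR, with falls of 2.35, 0.85 and 3.20 (SE 0.14, limma adjusted p = 5.15e-06, 0.00254 and 5.85e-07). SPRY2, a feedback inhibitor of receptor tyrosine kinases, fell by 0.76 and 0.24 in the 2 steps (SE 0.03). DUSP6, an ERK phosphatase, fell by 0.62 ± 0.06 with TLX and differed by -0.16 after the siRNA (adjusted p = 0.0755). SPRY4 fell by 0.45 ± 0.06 after the siRNA, while DUSP4 fell by 0.50 ± 0.04 and then rose by 0.20 ± 0.04, the rise being lost with library medians centred. These genes respond to many receptors, so the list is no measure of neurotrophin signalling alone.

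**Figure D3:**
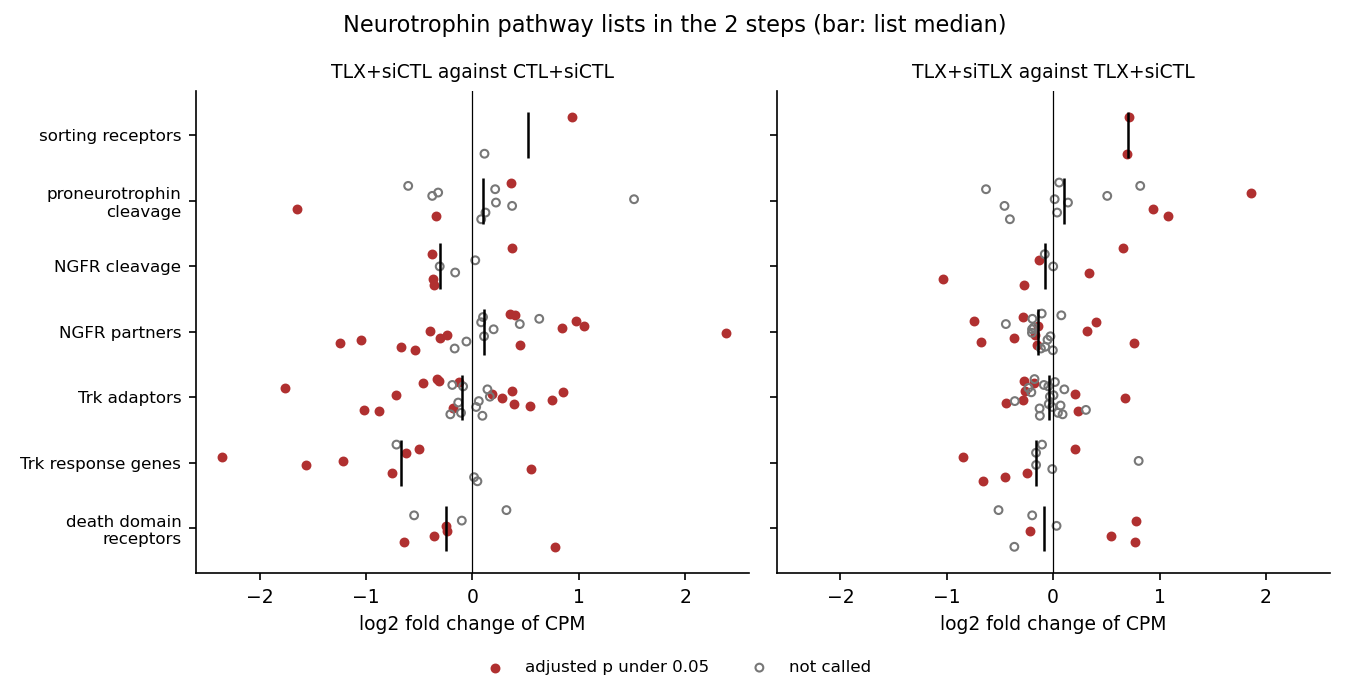
Log2 fold changes (x axis) of the genes of 7 neurotrophin pathway lists (y axis) in TLX+siCTL against CTL+siCTL (left) and TLX+siTLX against TLX+siCTL (right), filled where limma's adjusted p was under 0.05, with the list median as a bar. Only the Trk response genes have a median beyond 0.5 units below 0 in the left panel, at -0.67, and of the lists shown the sorting receptors, with 2 genes, have the highest median in the right panel, at 0.70.

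NGFR belongs to the death domain receptors of the TNF receptor family, and the other genes of this family did not share its course. Of 9 genes 8 had a row, of which 1 rose and 4 fell in TLX+siCTL against CTL+siCTL, 3 rose and 1 fell in TLX+siTLX against TLX+siCTL, and 2 rose and 3 fell in TLX+siTLX against CTL+siCTL. Of the 8 genes, 6 averaged a log2 CPM of 1 or more, a level at which 56.6%, 45.8% and 63.6% of rows were called. Without S9 the last split was 1 and 2, with the calls of TNFRSF1A and TNFRSF10A lost. TNFRSF21, death receptor 6 in its older name, fell by 0.65 ± 0.05 and rose again by 0.77 ± 0.05, and TNFRSF1A, the main TNF receptor, fell by 0.36 ± 0.06 and rose by 0.54 ± 0.06. FAS rose by 0.78 ± 0.13 after the siRNA. TNFRSF10B, a receptor for TRAIL, fell by 0.24 and 0.22 in the 2 steps (SE 0.03), its first call being lost with library medians centred. TNFRSF10A fell by 0.25 ± 0.06 in the first comparison and lost that call in the same setting. TNFRSF25 rose by 0.78 ± 0.15 with TLX and differed by -0.37 after the siRNA (adjusted p = 0.133). EDAR, counted among the 3 that fell, had a log2 CPM of -4.33, -4.72 and -4.70 in S1 to S3 and was at the floor in S7 to S9, so no fold is given.

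Since NGFR marks myoepithelial and neural crest cells, markers of both were set beside it; the genes named from these lists were chosen after their values were seen. Of 8 basal and myoepithelial breast markers with a row, 2 rose and 1 fell in TLX+siCTL against CTL+siCTL, 6 rose and 0 fell in TLX+siTLX against TLX+siCTL, and 5 rose and 1 fell in TLX+siTLX against CTL+siCTL. Of all rows 15.0%, 12.7% and 17.7% rose in these comparisons. The summed level of these markers was 72.9 to 87.2 CPM in CTL+siCTL, 84.8 to 97.0 in TLX+siCTL and 157 to 164 in TLX+siTLX. Most of this sum was 1 gene, MYLK. Its log2 CPM was 6.00 to 6.31 in CTL+siCTL, 6.32 to 6.53 in TLX+siCTL and 7.18 to 7.24 in TLX+siTLX. KRT14 and ACTG2, the former a defining keratin of these cells, stayed under 3 reads in every library, although KRT14 is among the 6 that rose after the siRNA by the test. KRT5 and KRT6B, also on the list, had no row. The rise after the siRNA was not limited to these markers. In TLX+siTLX against TLX+siCTL, 8 of 10 mesenchymal markers rose and 0 fell (median 0.49), or 5 and 0 with library medians centred, and 5 of 11 luminal markers rose and 1 fell (median 0.30). The part of these markers in the NGFR levels was not tested.

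TP63, the transcription factor that defines basal cells, had a log2 CPM of -3.30, -3.15 and -3.01 in S1 to S3, -0.50, -2.10 and -1.81 in S4 to S6, and 0.84, 0.81 and 1.10 in S7 to S9. Its groups were separate and in the order of NGFR, at a low level. TP63 rose by 1.68, 2.39 and 4.07 (SE 0.40, limma adjusted p = 0.0115, 0.00262 and 5.38e-05). OXTR, the oxytocin receptor of myoepithelial cells, rose by 1.55 ± 0.15 after the siRNA, and MYLK, the myosin light chain kinase, by 0.75 ± 0.08. KRT17 went the other way with TLX, falling by 1.75 ± 0.21, and was 1.05 ± 0.21 higher in TLX+siTLX than in TLX+siCTL.

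**Figure D4:**
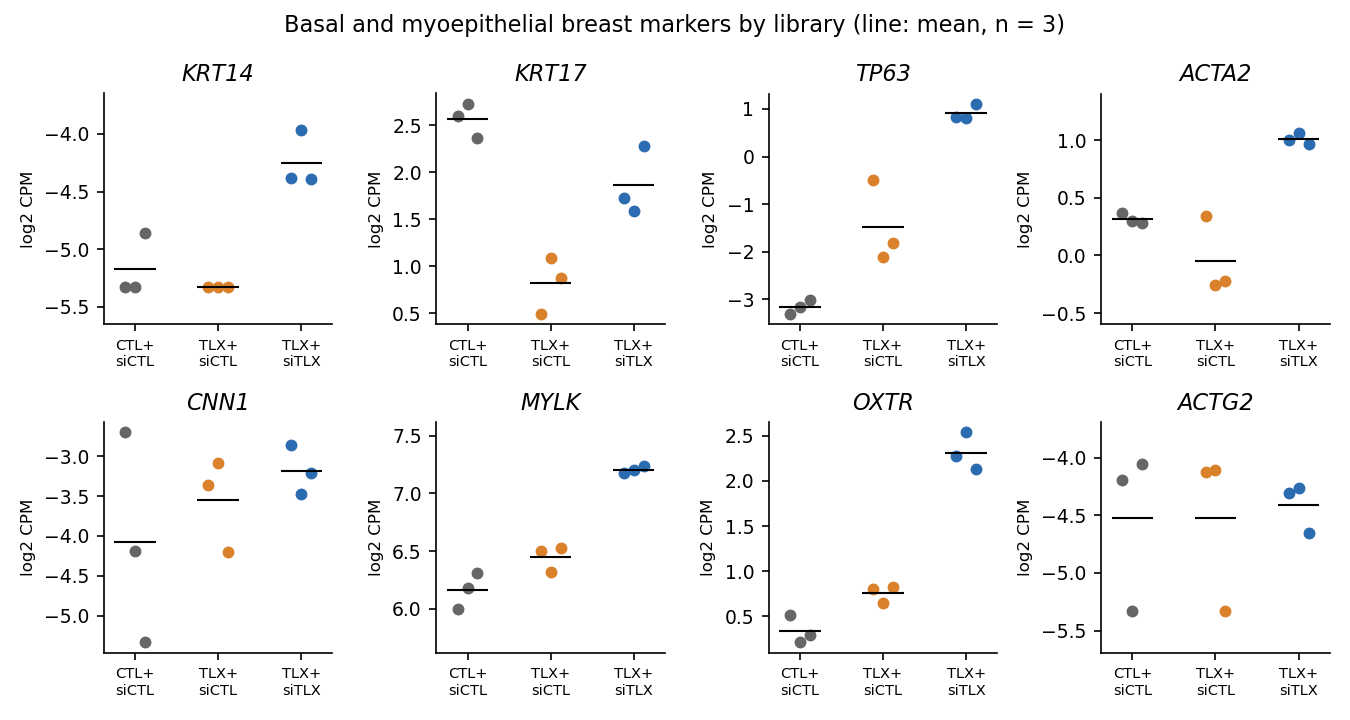
Log2 CPM (y axis) of the 8 basal and myoepithelial markers in the 9 libraries by group (x axis), 1 panel per gene with its own y range, with the group mean (n = 3) as a line. TP63 climbs across all 3 groups from -3.30 in S1 to 1.10 in S9, while KRT17 is lowest in TLX+siCTL.

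Of 16 neural crest, Schwann cell and melanocyte markers with a row, 2 rose and 1 fell in TLX+siCTL against CTL+siCTL, 3 rose and 1 fell in TLX+siTLX against TLX+siCTL, and 5 rose and 2 fell in TLX+siTLX against CTL+siCTL. Of all rows 30.1%, 23.7% and 34.6% were called in these comparisons. The summed level of these markers was 188 to 194 CPM in CTL+siCTL, 305 to 337 in TLX+siCTL and 289 to 327 in TLX+siTLX. Much of it was MBP, which rose by 0.97 ± 0.07 with TLX. SOX10, the defining factor of these lineages, had a log2 CPM between -5.33 and -3.03 in all libraries, and TYR stayed under 3 reads in each. The receptor gene ERBB3 rose by 0.97 ± 0.12 with TLX, and MITF fell by 0.50 ± 0.07 and then rose by 0.98 ± 0.07. The part of these markers in the NGFR levels was not tested.

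The rows whose pattern over the 9 libraries was most like that of NGFR were found among 11775 rows of annotated genes, by the root mean squared difference between log2 CPM values centred on each gene's mean. The 8 nearest were CCDC190 (difference 0.214), GDF5 (0.273), ANLN (0.325), KIF18B (0.358), ZNF367 (0.362), MCM10 (0.365), KIF4A (0.395) and FAM111B (0.414). GDF5 encodes a secreted growth factor of the BMP family, ANLN the cytokinesis protein anillin, KIF18B and KIF4A mitotic kinesins, and MCM10 a DNA replication factor. GDF5 had a log2 CPM of -0.58, -0.51 and -0.58 in S1 to S3, 1.49, 1.35 and 1.59 in S4 to S6, and 3.69, 3.74 and 3.86 in S7 to S9. Like NGFR, it formed 3 levels without overlap. The 9 points of each gene share their libraries and fall into 3 groups, so the likeness follows the group means, and no test is given.

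**Figure D5:**
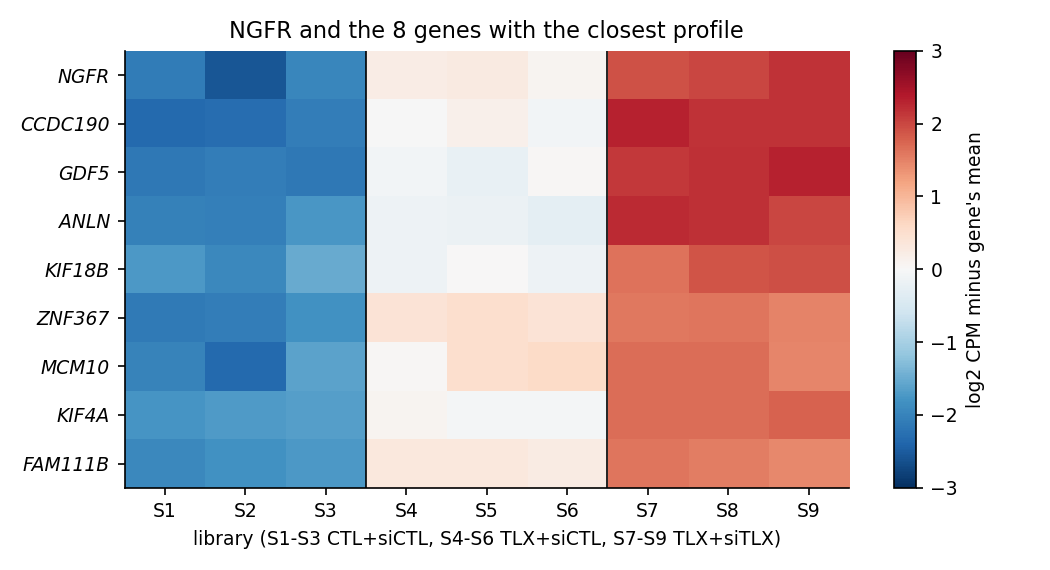
Heat map of log2 CPM minus the gene's mean (colour) in libraries S1 to S9 (x axis) for NGFR and the 8 genes with the smallest root mean squared difference from it (y axis), with vertical lines between the groups. Every gene shown is lowest in S1 to S3 and highest in S7 to S9, CCDC190 lying nearest to NGFR at 0.214.

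Genes beside NGFR on chromosome 17 did not share its course. The nearest protein-coding genes averaging a log2 CPM of 1 or more, a rule set after values were seen, were PHB and ZNF652 on the side of lower coordinates and SPOP and SLC35B1 on the other, 80.4 to 186 kb away. PHB, the nearest, rose by 0.40 ± 0.04 with TLX and fell by 0.20 ± 0.04 after the siRNA, and SPOP, on the other side, fell by 0.22 ± 0.04 and differed by -0.08 (adjusted p = 0.263). No gene among these 4 rose in TLX+siTLX against TLX+siCTL, the comparison in which NGFR differed by 1.85.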

How the data were processed

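The authors deposited log2 CPM values (read counts per library size) for 27548 Ensembl genes in 9 libraries, and a table of signed fold changes (ratios), p-values and false discovery rates (q-values) for 3 comparisons. The submitters' processing notes name GRCh38, edgeR, limma and kallisto 0.44.0 without their roles. The table's running library number is in no sample's labels, and 0 columns were left unmapped. Symbols and identifiers were joined by row, and genes were placed with GENCODE 29.

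The deposited log2 CPM values of all 9 libraries entered 1 fit (limma 3.58.1, R 4.3.3) with a trend of the variance on intensity. Its two-sided p-values were adjusted over 27548 rows by Benjamini-Hochberg, with a threshold of 0.05. Adjusted p-values in the text are from this fit, SE is the moderated standard error, and the fit was tested on simulated data. The lowest value, -5.33, fitted a prior count of 2, so log2 differences of low genes are understated. Taking it out gave CPM and estimated reads. Between 30.6% and 31.6% of values lay within 0.01 of a whole read. This share includes the rows at 0, which were 18.5% to 20.1% of each library. Reads are therefore estimates, used for description and for exact 95% binomial intervals that cover counting error only. An effective size of 73.9 to 91.8 M reads per library was inferred from the CPM step worth 1 read. A group with at most 3 estimated reads in all gives no CPM ratio.

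The genes and gene lists were chosen with earlier results of these data known. From each list other than cell type markers the 4 genes with the highest mean and, per comparison, the called gene with the largest difference were named. Some genes of these lists are not reported here. Alternatives were log2(CPM + 1), filters at a mean log2 CPM of 1 and -3, centred medians, quantile normalization, no trend, only the 2 groups compared, and leaving out each library.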

Additional observations from a re-analysis of the deposited data

How the results depend on the processing

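Of the 5 tested genes, the number called in TLX+siCTL against CTL+siCTL was 0. It was 1 on the log2(CPM + 1) scale, 1 with rows of a mean log2 CPM of at least 1, 1 with rows of at least -3, 1 with quantile normalization and 2 with library medians centred. Leave-one-out fits gave 0 to 1, with 1 without S3 (SORT1, 0.16, adjusted p = 0.00618) and 1 without S5 (BDNF). In TLX+siTLX against TLX+siCTL the number was 2, and it was 1 with library medians centred and 1 with no intensity trend, SORT1 being the call lost, and 3 on the log2(CPM + 1) scale and without S2, NTRK2 being the call gained (leave-one-out range 2 to 3). In TLX+siTLX against CTL+siCTL it was 3 in each setting in which all 3 genes entered the fit. BDNF was called in both comparisons of TLX+siTLX in all settings, with adjusted p from 6.77e-05 to 0.00768 against TLX+siCTL and from 4.67e-06 to 0.000976 against CTL+siCTL. NTRK2 against CTL+siCTL was called wherever it was fitted (adjusted p 0.000686 to 0.0220), with a difference of 0.24 on the log2(CPM + 1) scale. The NGFR difference was 1.68, 1.68 and 3.36 on that scale. Sign changes occurred for 2 genes of few reads: NTF3 in TLX+siCTL against CTL+siCTL (0.082 with library medians centred, -0.21 to 0.17 in leave-one-out fits, and 0.17, 0.05 and 0.05 without S3, S5 and S6) and NTRK3 in TLX+siTLX against CTL+siCTL (-0.28 to 0.65, with -0.03, -0.28 and -0.02 without S1, S7 and S8). The cause of these changes was not tested. NTRK2 and NTF3 gave no value under the filters, nor NTRK3 under the filter at 1. No paired analysis was possible because the columns carry no replicate number that the labels give. Depth limits NTRK2, NTRK3 and NTF3, at 0 to 52.3 estimated reads per library.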

Other observations

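Of 12 measured genes of other neurotrophic factor families and their receptors, 1 rose and 2 fell in TLX+siCTL against CTL+siCTL (1 and 1 without S9, with the call of GFRA1 lost), 1 rose and 2 fell in TLX+siTLX against TLX+siCTL, and 2 rose and 2 fell in TLX+siTLX against CTL+siCTL. Of all rows 30.1%, 23.7% and 34.6% were called in these comparisons. ARTN, a ligand of the GDNF family, had a log2 CPM of -0.05, -0.91 and -0.03 in S1 to S3, -0.09, 0.27 and 0.27 in S4 to S6, and 1.41, 1.28 and 1.79 in S7 to S9. The TLX+siTLX libraries lay above all others, and ARTN rose by 1.34 ± 0.27 (SE) against TLX+siCTL (limma adjusted p = 0.00663). PSPN, a ligand of the same family, fell by 0.76 ± 0.10 in that comparison (adjusted p = 0.000575). MANF, an endoplasmic reticulum protein with trophic activity, fell by 1.07 ± 0.07 with TLX and by 0.33 ± 0.07 after the siRNA. CNTF, a cytokine that supports neurons, was not called (adjusted p = 0.907, 0.0814 and 0.0877).

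The 5 genes whose pattern was most like that of BDNF over the 9 libraries were KPNA2, an importin (root mean squared difference 0.0575), CBX1, a heterochromatin protein (0.0578), SNX21 (0.0614), CCDC34 (0.0623) and ZBTB18, a zinc finger repressor (0.0752). CCDC34 lies on chromosome 11 as BDNF does (27330827 to 27363868 on GRCh38). Genes nearer to BDNF differed in course: LGR4 fell by 0.94 ± 0.12 with TLX and rose by 0.87 ± 0.12 after the siRNA, and LIN7C fell by 0.32 ± 0.04 after the siRNA. KIF18A, on the other side and 299 kb away, rose by 0.65 ± 0.06 and 1.01 ± 0.06 in the 2 steps. Beside SORT1, PSRC1, which lies 26.4 kb away, rose by 1.56 ± 0.12 after the siRNA (limma adjusted p = 4.08e-05), and PSMA5, 1.08 kb away, fell by 0.26 ± 0.08 (adjusted p = 0.0374).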
